A study of Mus musculus with 6 samples.

Results

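Helix-loop-helix (HLH) transcription factors and their inhibitors were read in T follicular helper (Tfh) cells that lack Bob1. The 8 genes are *Bhlhe40* and *Bhlhe41*, the inhibitors *Id2* and *Id3*, the E proteins *Tcf3*, *Tcf4* and *Tcf12*, and *Ascl2*. They were chosen by name, with the Bob1KO against WT results of the same libraries already known, and are 8 of 25349 genes with a value in all 6 libraries. Their differences between the groups are therefore given as a description, with no P value for any of them, and the counts past a threshold are printed only beside the share of all genes. RNA of sorted splenic Tfh cells was sequenced in 2 groups of 3 libraries on day 7 after intraperitoneal immunization with 100 µg of NP-CGG, a haptenated protein, in complete Freund's adjuvant. The Bob1KO group came from FoxP3GFP/DTRCD4Cre/+Bob1fl/fl mice and the WT group from FoxP3GFP/DTRCD4+/+Bob1fl/fl mice, so both groups carry the floxed Bob1 alleles and the FoxP3 reporter, and WT mice lack the Cre. Cre driven by the *Cd4* promoter acts from the thymus onward and in every T cell that has passed through CD4 expression, so the deletion was not limited to Tfh cells. By the methods, the libraries came from separate experiments with several mice each, and the mice were age- and sex-matched littermates. The sort kept CD3+CD4+CXCR5+PD-1+ cells without GFP and thereby left out Foxp3+ cells.

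HLH factors bind DNA in pairs at the E-box, whose letters are CANNTG. E proteins pair with one another or with tissue-restricted partners such as *Ascl2*, whereas Id proteins have the pairing domain but no DNA-binding region, and so hold E proteins off DNA. In CD4 T cells, *Id2* and *Id3* restrain Tfh differentiation, E proteins favour *Cxcr5*, and *Ascl2* starts the follicular programme by raising *Cxcr5* and lowering *Ccr7* and *Selplg*. *Bhlhe40* and *Bhlhe41* are repressors that bind the palindrome CACGTG, and they act in the circadian clock and in cytokine control of activated T cells. Bob1, encoded by *Pou2af1*, is a coactivator that joins the factors Oct1 and Oct2 on octamer sites.

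The labels were checked first. *Pou2af1* had 1.16, 0.237 and 0.317 FPKM (fragments scaled to transcript length in kilobases and to the number of mapped fragments) in the Bob1KO libraries, against 46.1, 32.5 and 34.4 FPKM in the WT libraries, and its log2 fold change was -4.65 (standard error, SE, 0.256, limma adjusted P = 0.00324), though without WT replicate 2 it did not pass the adjusted P. All 10 Tfh and T cell markers lay above 1 FPKM on average, with summed levels of 3190 to 4065 FPKM in Bob1KO and 3155 to 4094 FPKM in WT libraries. Of the other cell types, myeloid markers varied most. Their sum ranged between 69.3 and 3628 FPKM in Bob1KO libraries and between 433 and 744 FPKM in WT libraries, 8 of 9 measured markers were above 1 FPKM and 0 were at 0 in all libraries. The 10 B cell markers summed to between 27.4 and 53.8 FPKM in Bob1KO and between 23.1 and 39.9 FPKM in WT libraries. Y-linked transcripts were present in replicate 2 of both groups, at a summed 97.0 FPKM in Bob1KO and 87.4 FPKM in WT, and at no more than 0.0256 FPKM in the other libraries. Fewer cells of a type and less RNA per cell cannot be told apart in such bulk libraries.

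The start regions of the 8 genes were searched for the letters that HLH factors read. RefSeq promoter sequence on GRCm38.p6 was matched for 6 of the 8 genes, namely *Bhlhe41*, *Id2*, *Id3*, *Tcf3*, *Tcf12* and *Ascl2*, and the 250 bases before each start were searched on both strands. The upstream sequences of *Id2*, *Id3* and *Ascl2* are shown because these genes hold the highest levels and the widest spread in these cells, and capitals mark each E-box.
*Id2*, minus strand, chr12:25096093-25096342: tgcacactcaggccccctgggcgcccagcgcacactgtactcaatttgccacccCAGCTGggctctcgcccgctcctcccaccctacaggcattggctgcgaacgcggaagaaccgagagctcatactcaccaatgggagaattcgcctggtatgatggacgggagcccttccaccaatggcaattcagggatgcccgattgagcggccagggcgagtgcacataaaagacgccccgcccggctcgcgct
*Id3*, plus strand, chr4:136143572-136143821: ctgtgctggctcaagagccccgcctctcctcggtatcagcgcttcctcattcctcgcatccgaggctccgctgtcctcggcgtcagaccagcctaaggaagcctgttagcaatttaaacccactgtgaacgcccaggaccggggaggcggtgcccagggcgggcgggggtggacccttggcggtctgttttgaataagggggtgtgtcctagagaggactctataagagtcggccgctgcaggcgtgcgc
*Ascl2*, minus strand, chr7:142969265-142969514: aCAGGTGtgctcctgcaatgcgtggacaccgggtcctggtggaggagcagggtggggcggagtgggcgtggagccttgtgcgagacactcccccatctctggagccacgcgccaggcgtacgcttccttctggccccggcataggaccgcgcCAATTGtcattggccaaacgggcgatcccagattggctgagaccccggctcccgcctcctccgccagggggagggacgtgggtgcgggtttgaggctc
*Id2* holds a single E-box, CAGCTG, whose first base is at position -196, counted back from the start. The *Ascl2* window holds CAGGTG at -249 and a further E-box, CAATTG, and the *Id3* window holds 0. The short stretches around the CACGTG of *Bhlhe41* at -153 and the CAGCTG of *Tcf12* at -240 are shown beside them, the first because it has the exact letters that *Bhlhe40* and *Bhlhe41* read.
*Bhlhe41*, minus strand, chr6:145865558-145865583: gtacgttccgCACGTGagctgggtgc
*Tcf12*, minus strand, chr9:72112044-72112069: agatgctgccCAGCTGcgtccccgtc
Of 32851 RefSeq promoters of the same length, 6.02% hold CACGTG, 13% CAGCTG, 17.2% CACCTG or CAGGTG and 66.2% any CANNTG, which includes the letters before it. The octamer ATGCAAAT, or ATTTGCAT on the other strand, is in 1.60% of them and in 0 of the windows of these 6 genes.

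The genes differed widely in level. Because FPKM are per length, levels can be compared between genes, and the order by mean level was *Id3*, *Id2*, *Bhlhe40*, *Tcf3*, *Ascl2*, *Tcf12*, *Tcf4* and *Bhlhe41*. *Id3* exceeded *Id2* in 6 of 6 libraries by 2.21 to 3.36 times, and *Id2* exceeded *Bhlhe40* in 5 of 6. *Bhlhe40* exceeded *Tcf3* in 4 of 6 libraries, so these neighbours were not separated. *Tcf3* lay above *Ascl2* in 6 of 6 libraries, by 1.05 to 4.33 times. *Ascl2* in turn lay above *Tcf12* in 6 of 6 libraries, and *Tcf12* above *Tcf4* in 6 of 6, by 5.67 to 17.0 times. The order of *Ascl2* and *Tcf12* holds only for the rows assigned to *Tcf12*. With unassigned rows inside the gene added, *Tcf12* averaged 45.3 FPKM in Bob1KO and 34.0 FPKM in WT. *Ascl2* averaged 32.6 FPKM in Bob1KO and 32.3 FPKM in WT. By mean FPKM, *Id3* ranked 287 among all genes and *Tcf4* ranked 9347.

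**Figure D1:**
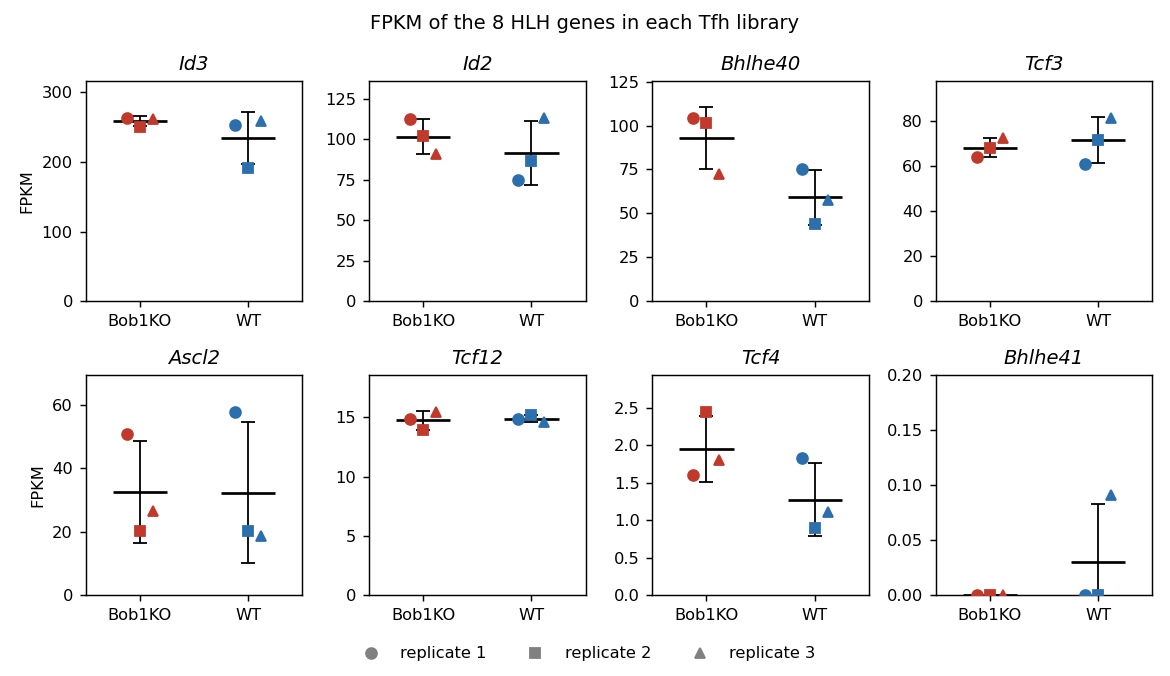
FPKM of the 8 HLH genes in each Tfh library, 1 panel per gene, with Bob1KO (red) left of WT (blue); symbols give the replicate number, and bars the mean ± SD of 3 libraries. Bhlhe40 has its highest values in Bob1KO replicates 1 and 2, at 104 and 102 FPKM, and Ascl2 is high in replicate 1 of both groups. Tcf12 lies between 13.9 and 15.5 FPKM throughout, without the unassigned rows inside the gene.

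*Bhlhe40* showed the largest difference of the 8 genes. It lies on chromosome 6 of GRCm38 from 108660629 to 108666925 and had 104, 102 and 72.4 FPKM in the Bob1KO libraries, against 75.5, 44.2 and 57.5 FPKM in the WT libraries. The groups overlapped at a single point, since WT replicate 1 lay just above Bob1KO replicate 3. The bounds that Cufflinks gave these 2 libraries, 68.7 to 76.2 FPKM in Bob1KO replicate 3 and 72.4 to 78.5 FPKM in WT replicate 1, overlap as well. Means were 92.8 ± 17.7 FPKM in Bob1KO and 59.1 ± 15.7 FPKM in WT Tfh cells (SD, n = 3 each). The log2 fold change, on log2(FPKM + 1), was 0.66 (SE 0.225). It was larger than that of 97.2% of the genes tested, a rank that only describes, as the gene was chosen with this contrast known. It remained positive with any 1 library left out, between 0.47 without WT replicate 2 and 0.85 without WT replicate 1. Without both replicate 2 libraries, those with Y-linked transcripts, it was 0.40.

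The transcripts assembled for *Bhlhe40* differed between libraries. In WT replicates 1 and 3, but in no other library, the assembled row began 46.6 kb before the gene and took in the antisense gene *0610040F04Rik*. The remaining WT library, replicate 2, had a row with the bounds of *Bhlhe40* alone and also the lowest value, 44.2 FPKM. The part of the longer rows in the difference between the groups was not tested. In the authors' table, which used 1 common assembly, the authors' group values were 113 FPKM in Bob1KO and 63.5 FPKM in WT, a ratio of 1.78. *S100a8*, a neutrophil and monocyte gene, had 2027, 35.5 and 567 FPKM in the Bob1KO libraries, against 294, 254 and 447 FPKM in the WT libraries. Without Bob1KO replicate 1, the library highest in *S100a8*, the log2 fold change of *Bhlhe40* was 0.56. The part of myeloid transcripts in the difference was not tested.

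*Bhlhe41*, the close relative of *Bhlhe40*, was not detectable in most libraries. It lies on chromosome 6 from 145862737 to 145865340, is listed at 0 in all 3 Bob1KO libraries and in WT replicates 1 and 2, and had 0.0911 FPKM in WT replicate 3. It was the only one of the 8 genes below the filter on low values, a mean of 1 FPKM, and so the only one that was not tested.

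The Id genes were the most abundant of the set and differed little between the groups. *Id3*, on chromosome 4 from 136143822 to 136145392, had 263, 249.6 and 262 FPKM in the Bob1KO libraries, against 252, 192 and 258 FPKM in the WT libraries. The 3 Bob1KO values lay close together, and WT replicate 2 stood below all other libraries. The log2 fold change of *Id3* was 0.15 (SE 0.140), and was 0.02 when WT replicate 2 was left out. *Id2*, on chromosome 12 from 25093799 to 25096092, had 112, 102 and 90.8 FPKM in the Bob1KO libraries, against 74.9, 86.6 and 113 FPKM in the WT libraries. The WT libraries enclosed the Bob1KO range, and the highest value of all belonged to WT replicate 3. Its log2 fold change was 0.17 (SE 0.171), with values of 0.03 to 0.33 when 1 library was left out. The ratio of *Id3* to *Id2* was 2.56 ± 0.289 in Bob1KO and 2.62 ± 0.646 in WT Tfh cells (SD, n = 3 each), which differ by less than the spread within either group.

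Of the E proteins, *Tcf3* was the main transcript. This gene, on chromosome 10 from 80409541 to 80433976, encodes E12 and E47 and had 64.0, 68.2 and 72.4 FPKM in the Bob1KO libraries, against 61.0, 71.7 and 81.5 FPKM in the WT libraries. The WT libraries enclosed the Bob1KO range, and the log2 fold change was -0.06 (SE 0.131), with 0.04 when WT replicate 3 was left out. *Tcf12*, which encodes HEB and lies on chromosome 9 from 71844252 to 72111893, had 14.9, 13.9 and 15.5 FPKM in the Bob1KO libraries, against 14.9, 15.2 and 14.6 FPKM in the WT libraries. By the rows assigned to it, it was the steadiest of the detected genes, with a highest value 1.11 times its lowest. Its log2 fold change was -0.01 (SE 0.111). With 1 library left out, this value stayed between -0.05 and 0.03. With the unassigned rows inside the gene added, the log2 fold change was 0.40. The libraries then had 56.2, 29.7 and 49.9 FPKM in Bob1KO, against 45.6, 32.1 and 24.3 FPKM in WT. The steadiness across libraries thus holds only without these rows. The authors' group values from the common assembly were 17.4 FPKM in Bob1KO and 17.8 FPKM in WT, a log2 difference of -0.03.

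*Tcf4*, which encodes E2-2 and is best known for plasmacytoid dendritic cells, was near the filter. The gene lies on chromosome 18 from 69343429 to 69687967 and had 1.60, 2.45 and 1.81 FPKM in the Bob1KO libraries, against 1.83, 0.892 and 1.11 FPKM in the WT libraries. WT replicate 1 exceeded 2 of the 3 Bob1KO libraries, and the Cufflinks bounds spanned 15.2% to 27.4% of a value to either side. Its log2 fold change was 0.39 (SE 0.243), and 0.15 without both replicate 2 libraries. The authors' group values from the common assembly, 1.74 FPKM in Bob1KO and 1.71 FPKM in WT, differ by a log2 value of only 0.02. Unassigned rows inside the gene are left out of these library values, and with them added the log2 fold change was 0.03. Plasmacytoid dendritic cell markers, of which *Cox6a2* was at 0 in all libraries and 2 of 6 were above 1 FPKM, summed to between 68.4 and 76.6 FPKM in Bob1KO and between 65.7 and 103 FPKM in WT libraries. *Bst2*, a gene that many activated cells express, held most of this sum, and the part of such cells in *Tcf4* was not tested.

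The balance of inhibitors and E proteins was then summed per library. *Id2* and *Id3* together had 376, 352 and 353 FPKM in the Bob1KO libraries, against 327, 278 and 372 FPKM in the WT libraries. *Tcf3*, *Tcf4* and *Tcf12* together had 80.5, 84.5 and 89.7 FPKM in the Bob1KO libraries, against 77.7, 87.8 and 97.2 FPKM in the WT libraries. Inhibitor transcripts thus exceeded E protein transcripts in every library, with ratios of 4.67, 4.16 and 3.93 in Bob1KO and 4.21, 3.17 and 3.83 in WT Tfh cells. WT replicate 2 had the lowest ratio, and WT replicate 1 exceeded 2 of the 3 Bob1KO libraries. On the log2 scale the ratio was 2.09 ± 0.126 in Bob1KO and 1.89 ± 0.208 in WT (SD, n = 3 each), a difference of 0.19 that was smaller than the SD of the WT libraries and was 0.08 without WT replicate 2. *Tcf3* made up 80.3% ± 0.685 of the E protein sum in Bob1KO and 81.3% ± 2.67 in WT (SD, n = 3 each). These E protein sums leave out the unassigned rows inside *Tcf12*, at 41.3, 15.8 and 34.4 FPKM in the Bob1KO libraries. In the WT libraries such rows had 30.7, 16.9 and 9.62 FPKM. Rows inside *Tcf4* are left out as well. The ratio, its difference between the groups and the share of *Tcf3* depend on this choice, and were not computed with the rows added.

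**Figure D2:**
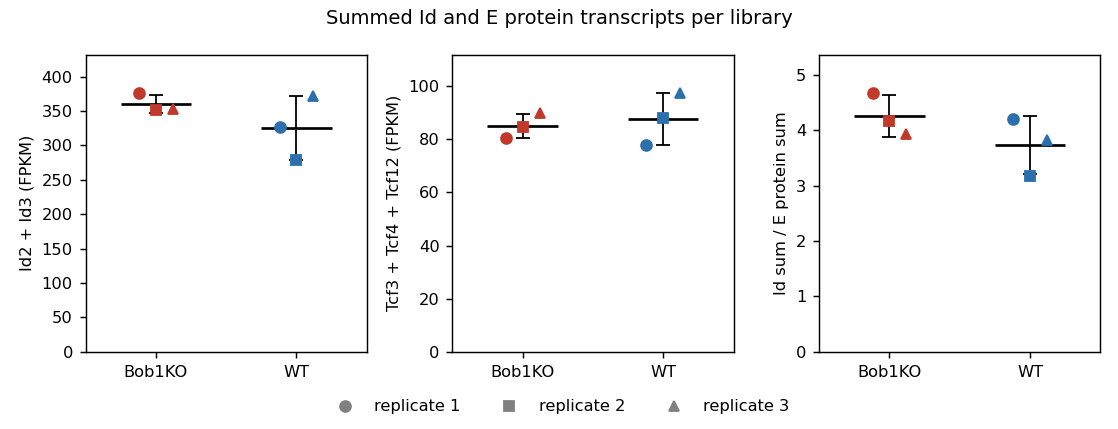
Summed FPKM of Id2 and Id3 (left), of Tcf3, Tcf4 and Tcf12 (middle) and the ratio of these sums (right) in each library, Bob1KO left of WT, with bars for the mean ± SD of 3 libraries and symbols for the replicate number. The ratio lies between 3.17 and 4.67 in all libraries, and the groups overlap in every panel. Unassigned rows inside Tcf4 and Tcf12 are not in the sums.

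*Ascl2* varied most within the groups. It lies on chromosome 7 from 142966822 to 142969264 and had 51.0, 20.3 and 26.4 FPKM in the Bob1KO libraries, against 57.9, 20.3 and 18.8 FPKM in the WT libraries. The library numbered 1 was the highest in both groups, and the group means were almost the same, at 32.6 ± 16.2 FPKM in Bob1KO and 32.3 ± 22.2 FPKM in WT (SD, n = 3 each). The log2 fold change was 0.10 (SE 0.486), and leaving out 1 library changed its sign, with -0.27 without Bob1KO replicate 1 and 0.60 without WT replicate 1. With the replicate number as a block it stayed at 0.10, with an SE of 0.1585. Between same-numbered libraries 1, 2 and 3, Bob1KO minus WT, it was -0.18, -0.00083 and 0.47. The labels state no pairing. The authors' group value was 38.0 FPKM in both groups.

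Other Tfh genes were read for the same libraries. Of the 10 T cell and Tfh markers, 8 had their highest value of each group in the library numbered 1, as *Ascl2* did, beside 14.5% of all genes tested. Among the 11 tested genes of the *Bcl6* and Blimp1 axis, 5 did so, and 2 had their lowest value there, beside 9.62% of all genes for the lowest value. Of the 6 tested genes that respond to *Ascl2*, 1 was highest and 2 were lowest in these libraries. The genes described next were chosen after their values were seen, and others did not share the pattern: *Icos*, a costimulatory receptor, had 88.8, 78.8 and 161 FPKM in the Bob1KO libraries, against 192, 102 and 98.8 FPKM in the WT libraries. *Bcl6*, the repressor that defines the Tfh lineage, had 63.6, 47.8 and 38.1 FPKM in the Bob1KO libraries, against 73.9, 41.6 and 37.8 FPKM in the WT libraries. *Cxcr5*, the receptor that brings T cells to the follicle, had 232, 156 and 229 FPKM in the Bob1KO libraries, against 264, 178 and 189 FPKM in the WT libraries. Both had their highest value in the library numbered 1 of each group, although *Cxcr5* was nearly as high in Bob1KO replicate 3, where *Ascl2* was at 26.4 FPKM. *Klf2*, which keeps T cells recirculating, had 211, 486 and 313 FPKM in the Bob1KO libraries, against 108, 368 and 287 FPKM in the WT libraries. *S1pr1*, an exit receptor that *Klf2* is known to drive, had 92.2, 125 and 163 FPKM in the Bob1KO libraries, against 62.6, 121 and 135 FPKM in the WT libraries. *Ccr7*, the receptor for the T cell zone, had 68.9, 83.5 and 101 FPKM in the Bob1KO libraries, against 38.4, 87.0 and 111 FPKM in the WT libraries. These 3 genes and *Il7r*, the receptor for interleukin-7, had their lowest value in the library numbered 1 of each group. This is a description of 6 libraries, and its part in the difference between the groups was not tested.

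**Figure D3:**
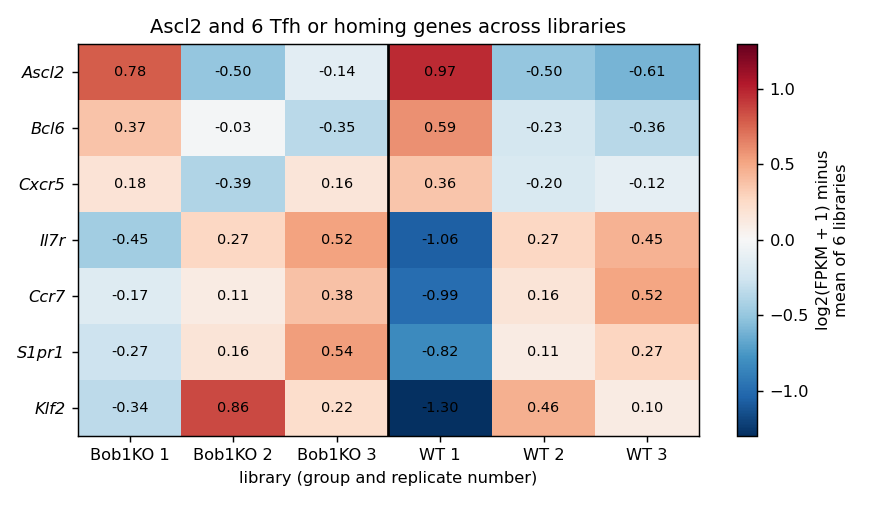
Ascl2 and 6 further genes in each library (columns, Bob1KO left of WT), as log2(FPKM + 1) minus the mean of the 6 libraries, with each value printed in its cell. In the first column of each group, Ascl2, Bcl6 and Cxcr5 are at their highest (0.78 and 0.97 for Ascl2 in Bob1KO and WT) and Il7r, Ccr7, S1pr1 and Klf2 at their lowest.

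Across the set, 0 of the 7 tested genes passed an adjusted P of 0.05 in limma, beside 0.0201% of all genes tested. These were *Pcsk1*, higher in Bob1KO, and *Pou2af1*, lower, each 0.0101% of the genes. Below an unadjusted P of 0.05 in the same fit there was 1 of the 7. Of all genes tested, 5.35% had such a P, 3.18% higher and 2.17% lower in Bob1KO. The groups overlapped for all 7, and 10.6% of all tested genes had no overlap. The log2 fold change was positive for 5 genes and negative for 2, and the median of all 9947 tested genes was -0.0033. As the genes were chosen with this contrast known, these counts say nothing further about them.

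**Figure D4:**
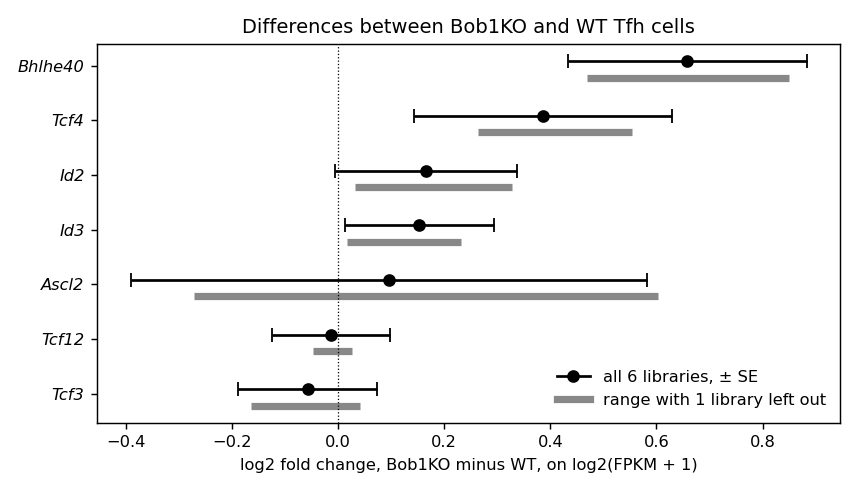
Log2 fold change, Bob1KO minus WT, of the 7 tested HLH genes on log2(FPKM + 1). Points with bars give the value from all 6 libraries ± its standard error, and grey bars the range when 1 library was left out; Bhlhe40 and Tcf4 are the 2 highest, at 0.66 and 0.39, and the grey bars of Ascl2, Tcf12 and Tcf3 cross 0.

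The genes whose profile over the 6 libraries was most like that of each HLH gene were sought among 5972 genes. The measure was the mean absolute difference of log2 values centred on their mean. With so many candidates and only 6 libraries, neighbours closer than a flat profile are expected from the search alone. Shared regulation was not tested. For *Bhlhe40* the nearest genes were *Wdfy1*, *Sh3gl3* and *Gdpd5*, with differences of 0.0418, 0.0856 and 0.112, where a flat profile would give 0.348. *Wdfy1*, an endosomal adaptor of Toll-like receptor signalling, had 16.4, 17.6 and 12.1 FPKM in the Bob1KO libraries, against 12.98, 7.35 and 9.70 FPKM in the WT libraries. For *Ascl2* they were *Art2a-ps*, *Adck3* and *Kif5b*, with differences of 0.0774, 0.130 and 0.133 against 0.583 for a flat profile. *Art2a-ps* had 41.0, 15.1 and 23.2 FPKM in the Bob1KO libraries, against 44.1, 15.3 and 15.9 FPKM in the WT libraries. Its high values in the libraries numbered 1 follow from its selection by this profile. Among the nearest genes were *Neu1*, *Lfng* and *Arsa* for *Id2*, *Haus7* and *Zscan21* for *Id3*, and *Mak16*, *Ms4a6b* and *Add1* for *Tcf3*. *Atp9b* and *Lpcat4* were near *Tcf4*, and *Tcf12* was nearest to *Poldip2*, *Cmtm6* and the joint row of *Ecd* and *Gm20140*. For *Tcf12*, the steadiest gene by its assigned rows, the neighbours lay at 0.0208 to 0.0228 and a flat profile at 0.0347. For *Tcf3* they lay at 0.0192 to 0.0251 and a flat profile at 0.110.

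Genes that work with these factors were read in 9 lists of 118 genes, of which 112 had a value in all libraries and 82 were tested. Of these, 0 passed an adjusted P of 0.05 in limma in either direction, with a smallest adjusted P of 0.836, and 6 had an unadjusted P below 0.05, all 6 higher in Bob1KO, where 5.35% of all genes tested had such a P, 3.18% of all genes being higher and 2.17% lower. In 7 of the 82 all Bob1KO libraries lay above all WT libraries, beside 5.82% of all genes tested, and in 2 they lay below, beside 4.76%. The log2 fold change was positive for 49 and negative for 33 of them, and for 4904 and 5043 of all genes tested. A gene may stand in more than 1 list, and the lists were drawn up with earlier results of these libraries known.

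Other HLH partners of E proteins were near absent. Of 13 listed, 12 had a value and 0 reached a mean of 1 FPKM, and the highest value in any library was 0.696 FPKM, of *Twist2* in Bob1KO replicate 1. *Twist2*, a repressor of cytokine genes, named after its values were seen, had 0.696, 0.254 and 0.616 FPKM in the Bob1KO libraries and is listed at 0 in all 3 WT libraries. Among the cofactors of E proteins, 5 of 9 tested genes had a value above 0 and 4 a value below 0 (median log2 fold change 0.10). The largest was that of *Lmo4*, a LIM-only adaptor that joins *Ldb1* in complexes with E proteins. It had 86.9, 63.0 and 57.6 FPKM in the Bob1KO libraries, against 51.7, 39.2 and 27.5 FPKM in the WT libraries, without overlap and with a log2 fold change of 0.82 (SE 0.251, limma adjusted P = 0.836). *Crebbp*, a histone acetyltransferase that E proteins recruit, averaged 8.15 ± 1.92 FPKM in Bob1KO and 5.35 ± 0.512 FPKM in WT (SD, n = 3 each), with a log2 fold change of 0.51 (limma adjusted P = 0.903). *Ldb1*, the most abundant cofactor, had a log2 fold change of -0.07 (SE 0.114).

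Genes on which E and Id proteins are known to act in T cells gave 9 positive and 4 negative log2 fold changes among 13 tested. Their median was 0.15, beside -0.0033 for all genes. The list was drawn up without regard to the direction in which these proteins act on each gene. The counts and the median are therefore no measure of E or Id activity. *Cd4*, whose enhancer E proteins bind in thymocytes, had 466, 414 and 443 FPKM in the Bob1KO libraries, against 379, 357 and 299.9 FPKM in the WT libraries. All Bob1KO libraries lay above all WT libraries, and the log2 fold change was 0.36 (SE 0.128, limma adjusted P = 0.903). *Cd4* is also the gene whose promoter drives the Cre and is part of the sort. *Notch1* averaged 10.9 ± 1.10 FPKM in Bob1KO and 8.25 ± 1.40 FPKM in WT (SD, n = 3 each), with a log2 fold change of 0.37 (limma adjusted P = 0.921). *Tcf7*, the factor TCF-1 and the most abundant of this list, was at 981, 978 and 1071 FPKM in the Bob1KO libraries, against 985, 949.9 and 874 FPKM in the WT libraries, which overlap.

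Responses known for *Ascl2* and *Bhlhe40* were also read. Among the 6 tested genes that respond to *Ascl2*, 3 had a positive and 3 a negative value. *Selplg*, a selectin ligand that *Ascl2* lowers and the most abundant of the list, had 295, 277 and 232 FPKM in the Bob1KO libraries, against 146, 282 and 310 FPKM in the WT libraries, with its lowest value in WT replicate 1 and its highest Bob1KO value in Bob1KO replicate 1, the 2 libraries highest in *Ascl2*. *Tbx21*, the T helper 1 factor, had 13.9, 26.0 and 22.4 FPKM in the Bob1KO libraries, against 22.5, 19.3 and 29.1 FPKM in the WT libraries. Of the cytokines that respond to *Bhlhe40*, 3 of 5 were tested, and all 3 had negative values that did not pass the test. *Il10*, which *Bhlhe40* represses in T cells, had 1.23, 6.58 and 4.23 FPKM in the Bob1KO libraries, against 6.65, 8.61 and 4.16 FPKM in the WT libraries. These groups overlapped, and the log2 fold change was -0.70 (SE 0.460, limma adjusted P = 0.948). *Ifng*, the interferon that *Bhlhe40* promotes, averaged 45.0 ± 12.7 FPKM in Bob1KO and 52.8 ± 6.13 FPKM in WT (SD, n = 3 each), with a log2 fold change of -0.25 (limma adjusted P = 0.948). *Csf2* stayed at or below 0.140 FPKM and *Il17a* at or below 0.0814 FPKM in every library.

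Among the clock genes, on which *Bhlhe40* and *Bhlhe41* act as repressors, 10 of 16 tested genes had positive and 6 negative values, with a median of 0.05. *Nfil3*, a clock output factor that lowers other rhythmic genes, had 38.3, 54.9 and 29.7 FPKM in the Bob1KO libraries, against 34.1, 19.8 and 21.9 FPKM in the WT libraries. Like *Bhlhe40*, it overlapped only in Bob1KO replicate 3 and WT replicate 1, and its log2 fold change was 0.67 (SE 0.273, limma adjusted P = 0.921). *Csnk1e*, a kinase of the PER proteins, lay lower in all Bob1KO libraries, at 10.2 ± 0.991 FPKM, than in the WT libraries, at 12.8 ± 1.36 FPKM (SD, n = 3 each), without passing the test (limma adjusted P = 0.933). Its relative *Csnk1d*, the most abundant of the list, averaged 84.8 ± 3.85 FPKM in Bob1KO and 81.3 ± 11.6 FPKM in WT (SD, n = 3 each).

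Other bHLH factors outside the E protein family gave 10 positive and 6 negative values among 16 tested, with a median of 0.05. The smallest unadjusted P values of this list belonged to *Srebf2*, the factor of sterol synthesis, with a log2 fold change of -0.21 (limma adjusted P = 0.948), and *Arnt*, the partner of bHLH-PAS factors, with 0.19 (limma adjusted P = 0.948). *Max*, the partner of MYC and the most abundant, averaged 77.6 ± 17.3 FPKM in Bob1KO and 80.5 ± 17.7 FPKM in WT (SD, n = 3 each). Among regulators of the Id genes and *Ascl2*, 8 of 15 tested genes had positive and 7 negative values, with a median of 0.05. *Tgfbr2*, the ligand-binding receptor of TGF-β, which is known to influence Id genes, had 68.6, 67.2 and 76.4 FPKM in the Bob1KO libraries, against 58.2, 58.1 and 55.7 FPKM in the WT libraries. The groups did not overlap, and the log2 fold change was 0.30 (SE 0.0997, limma adjusted P = 0.903). *Smad2*, a signal carrier of the same receptor, had a log2 fold change of 0.56 (SE 0.467), which rested on WT replicate 2, at 7.55 FPKM against 25.9 to 31.9 FPKM in the other libraries.

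The axis of *Bcl6* and Blimp1, with and against which Id and E proteins act in Tfh fate, gave 8 positive and 3 negative values among 11 tested genes, with a median of 0.12. *Irf4*, a factor that T cell receptor signals induce in graded fashion, had 5.62, 5.87 and 7.75 FPKM in the Bob1KO libraries, against 4.91, 4.78 and 2.89 FPKM in the WT libraries. Its groups did not overlap, and the log2 fold change was 0.53 (SE 0.221, limma adjusted P = 0.921). *Batf*, which joins *Irf4* on DNA, averaged 219.7 ± 24.5 FPKM in Bob1KO and 183 ± 16.6 FPKM in WT (SD, n = 3 each), with a log2 fold change of 0.26 (limma adjusted P = 0.944).

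**Figure D5:**
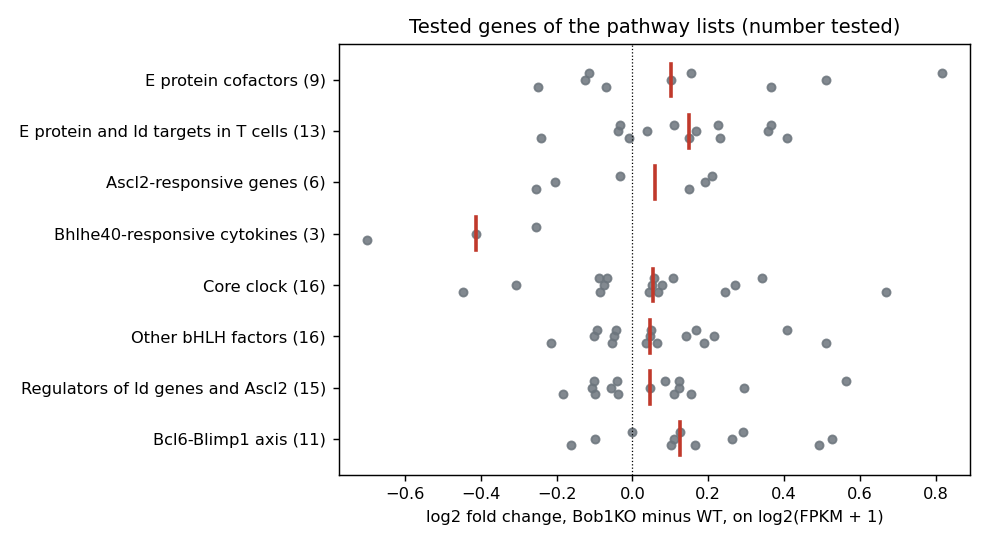
Log2 fold change, Bob1KO minus WT, of the tested genes of each list (grey points, number tested in brackets) with the median of the list (red line). Lmo4 is the highest at 0.82 and Il10 the lowest at -0.70, all others lie between -0.45 and 0.67, and 0 passed the adjusted P.

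Transcript fragments inside the long E protein genes were left out of the values above. Rows that the assemblies placed within *Tcf12* and that could not be assigned to it numbered 8, 3 and 6 in the Bob1KO libraries, with a summed 41.3, 15.8 and 34.4 FPKM, against 6, 3 and 3 in the WT libraries, with 30.7, 16.9 and 9.62 FPKM. In some libraries their sum exceeded the level of *Tcf12* itself, and the groups overlapped. With these rows added, a step chosen after seeing the data, *Tcf12* averaged 45.3 ± 13.9 FPKM in Bob1KO and 34.0 ± 10.8 FPKM in WT (SD, n = 3 each), and its log2 fold change was 0.40. Such rows within *Tcf4* summed to 1.63 FPKM in Bob1KO replicate 3, against 2.93 FPKM in WT replicate 2 and 0.649 FPKM in WT replicate 3, with 0 in the other libraries. With them added, *Tcf4* averaged 2.499 ± 0.922 FPKM in Bob1KO and 2.47 ± 1.17 FPKM in WT (SD, n = 3 each), and its log2 fold change was 0.03. Whether these fragments belong to the 2 genes was not tested, and the sums of E protein transcripts do not hold them.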

How the data were processed

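Total RNA of sorted Tfh cells was amplified as full-length cDNA with a low-input kit. By the submitters' processing notes, reads were trimmed with cutadapt 1.2.1 and aligned to GRCm38 (mm10) with TopHat2 2.0.13, and Cufflinks 2.2.1 gave the FPKM deposited by the authors for each library, on transcripts assembled in that library alone. For the gene annotation, a version was not given in the sources used here. A further table of the authors holds group FPKM from 1 common assembly, used here only as pooled values, and the authors' own fold changes, statistics, p-values and q-values, which were not used.

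Rows were assigned to genes by position where they shared at least 0.5 of their joint length, or, for a gene without a row, where a row covered at least 0.95 of it, and were summed per gene, which gave 25349 genes. The 9947 genes with a mean of at least 1 FPKM were fitted on log2(FPKM + 1) with limma 3.58.1 in R 4.3.3, with a variance trend, the group as the only term and two-sided P values adjusted by the Benjamini-Hochberg method over all of them. Rows were matched in pandas 2.3.3 under Python 3.11.15, and the fit was tested on simulated data. Fold changes on this scale understate those of low genes. The files hold no counts, so the depth of each library was not used. Precision within a library is given by the Cufflinks bounds, which for the genes above 10 FPKM lay 2.86% to 8.81% to either side of a value. These bounds do not cover the spread between libraries, where the highest value of *Ascl2* was 3.08 times its lowest.

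Groups and replicate numbers follow the labels. The HLH genes and the lists were chosen with earlier results of these data known. Named are all 8 genes, and of each list every gene past the adjusted P or else the 2 with the smallest P, and the most abundant one, the 3 nearest profiles of each gene, and the most abundant marker; others are said to be named after their values were seen. Some of the nearest profiles are not reported here. Of the genes listed, *Id1*, *Hif1a*, *Mxd4*, *Usf1*, *Il2rb* and *Prdm1*, and the markers *Foxp3*, *Lyz2* and *Hbb-bt*, were not used here, as they had no row of their own in every library. Marker sums not given above were 100 to 148 FPKM in Bob1KO and 108 to 163 FPKM in WT libraries for NK and CD8 T cells (most abundant gene *Nkg7*), 95.3 to 134 FPKM in Bob1KO and 77.8 to 106 FPKM in WT for plasma cells (*Xbp1*), 4.28 to 10.8 FPKM in Bob1KO and 2.71 to 7.85 FPKM in WT for erythroid cells (*Hba-a1*), and 299 to 336 FPKM in Bob1KO and 261 to 330.3 FPKM in WT for regulatory T cells (*Tnfrsf18*). *Cd3g* and *Cd22* led the T cell and B cell lists. The alternatives were other pseudocounts, filters, scalings, variance models and overlaps, a replicate block, both replicate 2 libraries left out and each library left out in turn; the authors' group FPKM and the addition of unassigned rows inside *Tcf4* and *Tcf12* were chosen after seeing the data.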

Additional observations from a re-analysis of the deposited data

How the results depend on the processing

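The log2 fold changes of *Bhlhe40*, *Id2*, *Id3* and *Tcf4* kept a positive sign under every alternative that gave a value, with ranges of 0.40 to 0.85, 0.03 to 0.33, 0.02 to 0.23 and 0.02 to 0.61, and the lowest value of *Tcf4*, 0.02, came from the authors' group FPKM. The sign changed under 4 of 20 alternatives for *Ascl2*, 3 of 21 for *Tcf12* and 1 of 20 for *Tcf3*. With the unassigned rows inside the genes added, also chosen after seeing the data, *Tcf12* was at 0.40 and *Tcf4* at 0.03. Of the HLH genes and of the list genes, 0 were called under any of the 19 alternatives fitted to the libraries. The group difference in the log2 ratio of Id to E protein sums was 0.19, and 0.08 to 0.28 with 1 library left out. It was not computed with the unassigned rows inside *Tcf12* and *Tcf4* added.

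Over all genes, 2 were called, 1 higher and 1 lower in Bob1KO. With a pseudocount of 0.1 or a filter at 5 FPKM the count was 1, with 0 higher. With no filter, 2 were lower. Without both replicate 2 libraries, 0 were higher and 2 lower. With 1 library left out, the count ranged between 0 and 7 in all, between 0 and 4 higher and between 0 and 5 lower, with 0 when WT replicate 2 and 7 when WT replicate 1 was left out.

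With the replicate number as a block, 1 gene was called and 0 of them higher, and the log2 fold change of *Bhlhe40* stayed at 0.66, with a standard error of 0.192. Deviations of same-numbered libraries correlated across genes at 0.0829, 0.132 and 0.0935, which are not all above 0.1, against -0.0735 to -0.0151 for other pairs, so each library was closest to its own number; the labels state no pairing. Precision is set by 3 libraries per group, and the values of *Tcf4* and *Bhlhe41* lie near or below the filter.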
